A study of Mus musculus with 16 samples.

Results

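Glutathione is the main soluble thiol of the cell, and its supply in skeletal muscle was followed here through 10 genes: the cystine transporter gene Slc7a11, the synthesis genes Gclc, Gclm and Gss, the reductase gene Gsr, the breakdown gene Chac1 and the peroxidase genes Gpx1, Gpx3, Gpx4 and Gpx8. They were taken by mouse symbol from the 48432 genes listed in the deposited table, and all 10 were tested. The cells were C2C12, an established mouse myoblast line of passage 4 to 8 that was left to fuse into contractile myotubes for 5 days in low-serum medium. Of 8 libraries, 4 came from myotubes given electrical pulse stimulation (EPS), in which pulses of 6 ms at 1 Hz (duty cycle 0.6%) and 2.75 V/mm with the polarity switched at 0.5 Hz drive contraction, and 4 came from unstimulated control myotubes. The sources used here do not give the length of stimulation. The labels do not say that libraries were separate cultures, so every p-value measures the spread of these libraries only, and that spread may be technical. The series title concerns GDF15 release by contracting muscle, and the comparison asks which transcripts differ in stimulated myotubes.

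Cystine enters the cell through system xc-, a pair of proteins in which SLC7A11 is the transporting chain, and is reduced to cysteine inside. Glutamate-cysteine ligase joins cysteine to glutamate in the step that limits synthesis, glutathione synthetase adds glycine, and glutathione reductase returns the oxidised form to the reduced one with NADPH. The antioxidant factor NRF2 is known to drive Slc7a11, Gclc, Gclm and Gsr, and the stress factor ATF4 is known to drive Slc7a11 and Chac1. Contracting muscle makes peroxides, which glutathione peroxidases remove at the expense of glutathione.

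The EPS libraries held 14.7 to 20.7 M fragments (M, 10 to the power of 6), 3 control libraries held 12.6 to 20.7 M, and control replicate 2 held 0.354 M, where 1 fragment is worth 2.84 CPM (counts per M fragments). The first principal component (68.4% of the variance) set that shallow library apart, and the second (20.2%) set EPS replicates 1 and 2 apart at -46.4 and -88.1, with all other libraries between -1.63 and 45.2. Myotube markers were detected in 9 of 9 genes with an estimate, with a summed level of 12778 to 17764 CPM in EPS and 20655 to 24305 CPM in control libraries, and proliferating myoblast markers (6 of 6 detected) summed to 291 to 646 CPM in EPS and 374 to 789 CPM in control. Leukocyte markers (4 of 5 detected, Adgre1 at 0) summed to 2.33 to 29.4 CPM in EPS and 2.72 to 8.52 CPM in control, and endothelial markers (4 of 4) to 1.14 to 14.8 CPM in EPS and 0 to 1.26 CPM in control. Both maxima were in EPS replicate 2 and came mostly from Cd68 (27.0 CPM) and Pecam1 (10.8 CPM); their part in the results was not tested. Adipocyte and neural markers stayed at or under 0.561 CPM in sum in every library, and Rbfox3, Snap25 and Syt1 were at 0.

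In stimulated myotubes, transcripts for cystine uptake, glutamate-cysteine ligase, glutathione reductase and glutathione cleavage rose, while of 4 tested peroxidase genes 1 fell and 3 did not pass the test. By edgeR's quasi-likelihood test on all 13987 genes tested (adjusted p under 0.05), 5 of the 10 rose in EPS (Slc7a11, Gclc, Gclm, Gsr and Chac1), against 2.3% of all tested genes, and 1 fell (Gpx3), against 0.758% of all tested genes. In all, 322 genes were higher and 106 lower (464 and 329 with offsets for transcript length and GC content). In CPM, every EPS library lay above every control library for 6 of the 10 genes, the 5 called and Gss, against 9.32% of all tested genes. Every EPS library lay below every control library for 1 gene, Gpx3, against 4.83%. Gpx1, Gpx4 and Gpx8 overlapped between groups. In bulk libraries, fewer cells of a type and less RNA per cell cannot be told apart.

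**Figure D1:**
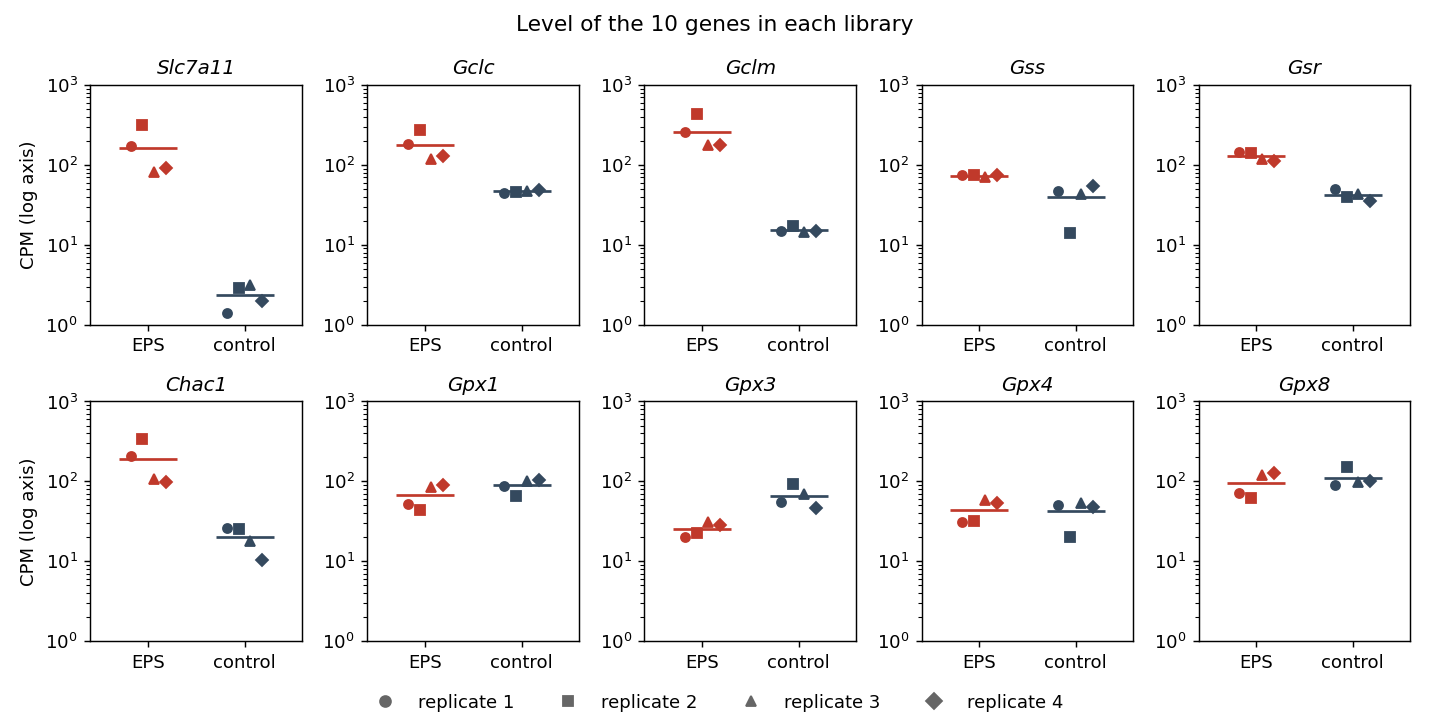
Level of each of the 10 genes in CPM (log axis) in the 4 EPS libraries, left, and the 4 control libraries, right, with symbols for the replicate number and bars for the group mean. EPS and control libraries are apart for Slc7a11, Gclc, Gclm, Gss, Gsr, Chac1 and Gpx3.

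Slc7a11 (ENSMUSG00000027737) encodes the transporting chain (chromosome 3 of mm10, 49892526 to 50443614, minus strand). It stood at 172, 314, 82.2 and 90.3 CPM in EPS libraries 1 to 4, against 1.41, 2.84, 3.15 and 2.01 CPM in control libraries 1 to 4. The transcript was scarce in unstimulated myotubes, with 26, 1, 40 and 42 fragments, and at 1588 to 3912 fragments in EPS libraries. The mean was 165 CPM ± 107 (SD, n = 4) in EPS and 2.35 CPM ± 0.792 (SD, n = 4) in control, with a log2 fold change of 6.25 (SE 0.56, adjusted p = 0.000312 by edgeR). By log2 fold change it ranked 10 among the 13987 genes. On the log2(FPKM + 1) scale of limma, which understates changes of low genes, it was 3.96.

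The 300 bases around the start of Slc7a11, from 250 before to 50 after it, are shown because they hold the sequence read by ATF4 with C/EBP partners, searched as TGATGNAA on both strands. Capitals mark the matches. The sequence is from RefSeq (GRCm38.p6, the mm10 assembly), chr3:50443564-50443863, minus strand, printed 5′ to 3′ along the gene.
Slc7a11: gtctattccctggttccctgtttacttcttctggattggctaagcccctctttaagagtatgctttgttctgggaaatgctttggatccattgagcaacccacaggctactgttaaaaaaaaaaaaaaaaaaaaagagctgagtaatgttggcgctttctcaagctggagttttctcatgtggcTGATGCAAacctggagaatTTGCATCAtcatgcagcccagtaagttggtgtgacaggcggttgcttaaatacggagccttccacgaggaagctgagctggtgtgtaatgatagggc
Matches began at positions -66 and -47 from the start, one on each strand, and both read TGATGCAA in their own direction. Of 27025 genes with a window of this kind, 4.51% held at least 1 match. Promoter windows were at hand for 8 of the 10 genes and not for Gclc and Gsr, so neither motif could be searched there. Slc7a11 and Chac1 held this motif, and Gclm held the core of the antioxidant response element that NRF2 reads (TGACNNNGC), which 14.0% of all genes hold. A core in 1 of 8 genes is near that share, so that count gives no result about them. No match says only that these letters are not in a window, and a match is not a shown binding site.

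Gclc and Gclm encode the catalytic and the modifier subunit of glutamate-cysteine ligase. Gclm (ENSMUSG00000028124; chromosome 3, 122245557 to 122270732, plus strand) stood at 259, 429, 179 and 176 CPM in EPS libraries 1 to 4, against 14.7, 17.0, 14.5 and 14.8 CPM in control. The mean was 261 CPM ± 119 (SD, n = 4) in EPS and 15.3 CPM ± 1.19 (SD, n = 4) in control, a log2 fold change of 4.13 (SE 0.32, adjusted p = 9.34e-05 by edgeR). Gclc (ENSMUSG00000032350; chromosome 9, 77754535 to 77794485, plus strand) stood at 181, 276, 118 and 131 CPM in EPS, against 44.6, 45.5, 47.5 and 49.0 CPM in control. Its mean was 177 CPM ± 71.7 (SD, n = 4) in EPS and 46.6 CPM ± 2.00 (SD, n = 4) in control, a log2 fold change of 1.91 (SE 0.26, adjusted p = 0.00444 by edgeR). In CPM, both genes lay in a narrow range in control libraries and spread widely among EPS libraries, with no overlap between groups. In deposited FPKM the control values of Gclm were less close, at 8.39, 2.51, 7.34 and 6.25 in replicates 1 to 4. Exons of Gclm share bases with Gm17494 on the opposite strand, which had 0 fragments, and with the pseudogene Gm6061, which had at most 4 in any library.

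The promoter window of Gclm is shown with the antioxidant response element core in capitals (RefSeq, GRCm38.p6, chr3:122245307-122245606, plus strand). No window was at hand for its partner Gclc, so the 2 promoters cannot be compared.
Gclm: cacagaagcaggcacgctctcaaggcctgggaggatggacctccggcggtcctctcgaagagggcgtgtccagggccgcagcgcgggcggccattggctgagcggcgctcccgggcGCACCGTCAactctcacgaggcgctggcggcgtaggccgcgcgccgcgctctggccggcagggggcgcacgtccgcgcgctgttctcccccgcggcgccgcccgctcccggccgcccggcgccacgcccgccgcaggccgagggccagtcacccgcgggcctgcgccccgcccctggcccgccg
The match began at position -134 and lies on the opposite strand, where it reads TGACGGTGC.

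The subunits did not rise by the same factor, so their ratio was computed within each library, a choice made after the values were seen. In FPKM (fragments per kilobase and M fragments, as deposited), Gclm stood at 2.60, 2.74, 2.68 and 2.59 times Gclc in EPS libraries 1 to 4, against 0.755, 0.218, 0.588 and 0.557 times in control libraries. The ratio averaged 2.65 ± 0.0713 (SD, n = 4) in EPS and 0.530 ± 0.225 (SD, n = 4) in control, and the means of the log2 ratios differed by 2.46. No test is given, since the ratio was chosen for this difference. In deposited FPKM, Gclm was thus above Gclc in each of the 4 EPS libraries and below it in each of the 4 control libraries. In estimated counts, which are not scaled by length, the ratio was 1.46 ± 0.0959 (SD, n = 4) in EPS and 0.328 ± 0.0337 (SD, n = 4) in control. The order per length rests on the lengths behind the deposited FPKM, which were not examined. The longest transcripts have 5589 bases for Gclm and 3423 for Gclc. Scaling by these would lower the count ratio, whereas in EPS the FPKM ratio was above it. Which subunit was more abundant per length in EPS is therefore not settled. The control replicate 2 value rests on 6 and 16 fragments, and without it the FPKM ratio averaged 0.634 ± 0.107 (SD, n = 3) in control and the means of the log2 ratios differed by 2.08. In counts the ratio of control replicate 2 was the highest of the control libraries, at 0.375, while in FPKM it was the lowest. While the level of each subunit varied over 2-fold among EPS libraries (highest over lowest 2.45 for Gclm and 2.34 for Gclc), the FPKM ratio in EPS lay within 2.59 to 2.74.

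**Figure D2:**
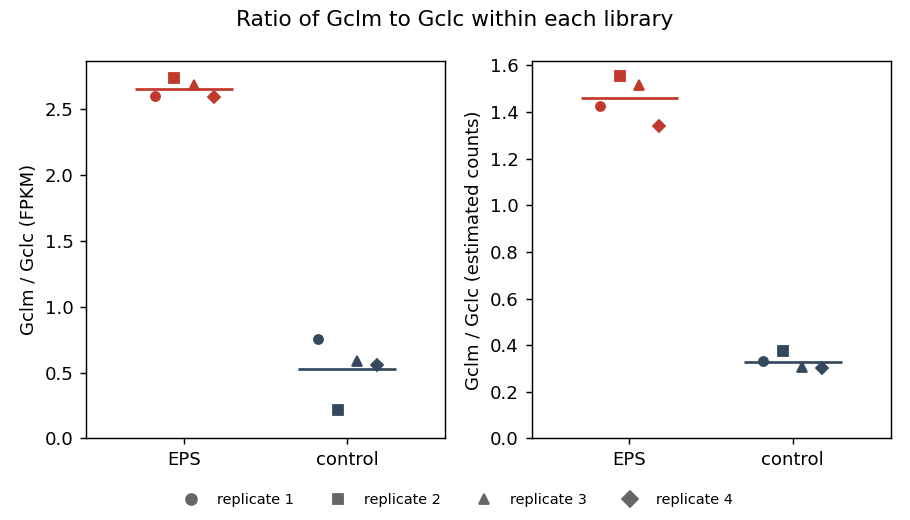
Ratio of Gclm to Gclc within each library, from FPKM (left panel) and from estimated counts (right panel), for EPS libraries, left, and control libraries, right, with bars for group means. The 4 EPS libraries lie between 2.59 and 2.74 on the FPKM scale and the 4 control libraries between 0.218 and 0.755.

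Gss (ENSMUSG00000027610; chromosome 2, 155563181 to 155592810, minus strand) encodes glutathione synthetase, the second enzyme of synthesis. It stood at 75.5, 74.3, 69.7 and 74.0 CPM in EPS libraries 1 to 4, against 47.7, 14.2, 43.1 and 54.2 CPM in control. EPS libraries were almost level with one another, and the shallow control replicate 2 was lowest, with 5 fragments. The log2 fold change of 0.74 (SE 0.24, 95% interval 0.22 to 1.27) did not pass the test (adjusted p = 0.124 by edgeR), but passed it with the replicate number as a block (0.73, adjusted p = 0.0273) and without control replicate 2 (0.60, adjusted p = 0.0402). Exons of Gss share bases with Acss2 and with the antisense genes Gssos1 and Gssos2 on the opposite strand. The strand setting of the counting is not stated, so such fragments cannot be assigned with certainty. For Acss2 the log2 fold change was 0.12 (adjusted p = 0.818 by edgeR), and Gssos1 and Gssos2 held at most 25 fragments in any library.

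Gsr (ENSMUSG00000031584; chromosome 8, 33652523 to 33698163, plus strand) encodes glutathione reductase. It stood at 145, 142, 119.5 and 112 CPM in EPS libraries 1 to 4, against 49.4, 39.8, 43.3 and 35.8 CPM in control. The mean was 129.8 CPM ± 16.6 (SD, n = 4) in EPS and 42.1 CPM ± 5.77 (SD, n = 4) in control, a log2 fold change of 1.61 (SE 0.17, adjusted p = 0.000901 by edgeR). The groups did not overlap, and of the 5 genes that rose it varied least among EPS libraries (highest over lowest 1.30, against 2.34 to 3.82 in the others).

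Chac1 (ENSMUSG00000027313; chromosome 2, 119351229 to 119354381, plus strand) encodes a cyclotransferase that cleaves reduced glutathione, so it acts against the synthesis genes. It stood at 208, 341, 107 and 99.3 CPM in EPS libraries 1 to 4, against 26.5, 25.6, 17.8 and 10.5 CPM in control. The mean was 189 CPM ± 113 (SD, n = 4) in EPS and 20.1 CPM ± 7.50 (SD, n = 4) in control, a log2 fold change of 3.32 (SE 0.47, adjusted p = 0.00489 by edgeR). The groups did not overlap, and replicates 1 and 2 were above replicates 3 and 4 in both. With the replicate number as a block the log2 fold change was 3.02 (SE 0.17). Its promoter window is shown with the match to TGATGNAA in capitals, for comparison with that of Slc7a11 (RefSeq, GRCm38.p6, chr2:119350992-119351291, plus strand).
Chac1: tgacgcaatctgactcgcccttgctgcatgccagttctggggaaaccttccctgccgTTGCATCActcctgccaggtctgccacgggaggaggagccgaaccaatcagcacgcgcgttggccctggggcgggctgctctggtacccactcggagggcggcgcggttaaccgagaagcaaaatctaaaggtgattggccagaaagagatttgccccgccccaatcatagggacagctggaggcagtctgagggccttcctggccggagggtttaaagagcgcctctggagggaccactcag
The match began at position -193 and lies on the opposite strand, where it reads TGATGCAA, the same letters as both matches of Slc7a11.

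The glutathione peroxidases spend glutathione on peroxides. Gpx3 (ENSMUSG00000018339; chromosome 11, 54902453 to 54910377, plus strand), whose product is secreted, fell. It stood at 20.1, 22.6, 31.3 and 28.1 CPM in EPS libraries 1 to 4, against 55.3, 93.8, 69.0 and 46.9 CPM in control. The mean was 25.5 CPM ± 5.09 (SD, n = 4) in EPS and 66.2 CPM ± 20.5 (SD, n = 4) in control, a log2 fold change of -1.29 (SE 0.23, adjusted p = 0.0155 by edgeR). The direction held in all 19 alternatives, but the call was lost without EPS replicate 1 (adjusted p = 0.0643), control replicate 1 (0.0509) or control replicate 3 (0.0761), and by limma (0.0919 on log2(FPKM + 1)).

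Gpx1 (ENSMUSG00000063856; chromosome 9, 108338903 to 108340343, plus strand), the main peroxidase of the cytosol, stood at 51.8, 44.0, 84.8 and 88.9 CPM in EPS, against 86.6, 65.3, 101 and 105 CPM in control. EPS replicates 1 and 2 were below all control libraries and EPS replicates 3 and 4 were within their range. The log2 fold change of -0.45 (95% interval -0.998 to 0.10) did not pass the test (adjusted p = 0.374 by edgeR, and 0.0699 with the replicate block). Gpx4 (ENSMUSG00000075706; chromosome 10, 80047166 to 80056439, plus strand), the enzyme that reduces lipid peroxides in membranes and so restrains ferroptosis, stood at 31.5, 32.2, 58.3 and 54.2 CPM in EPS, against 50.3, 19.9, 54.4 and 48.3 CPM in control. Its log2 fold change was -0.08 (95% interval -0.69 to 0.52, adjusted p = 0.908 by edgeR), and the sign changed when EPS replicate 1 or 2 or control replicate 3 was left out. Gpx8 (ENSMUSG00000021760; chromosome 13, 113042753 to 113046410, minus strand), a peroxidase of the endoplasmic reticulum with cysteine in place of selenocysteine, stood at 72.4, 62.1, 121 and 126 CPM in EPS, against 89.1, 151, 99.4 and 101 CPM in control. Its log2 fold change was -0.16 (95% interval -0.74 to 0.42, adjusted p = 0.791 by edgeR), and the sign changed without EPS replicate 2. These intervals leave room for changes of either sign in Gpx1, Gpx4 and Gpx8. The remaining family members Gpx2, Gpx5, Gpx6 and Gpx7 had at most 3 fragments in any library and were not tested.

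**Figure D3:**
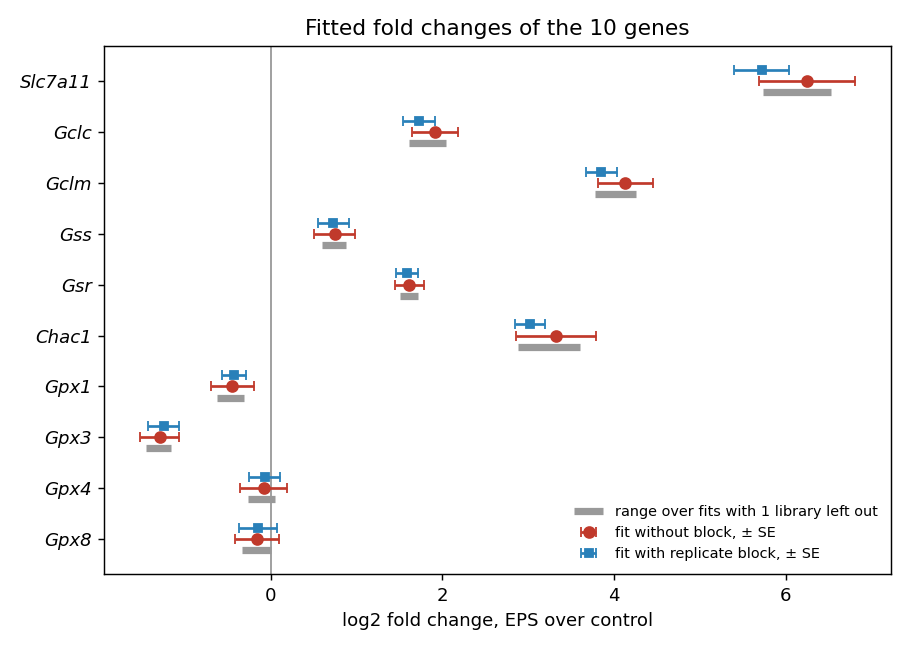
Log2 fold change (EPS over control) of the 10 genes from edgeR without a block (circles) and with the replicate number as a block (squares), each ± SE, and the range of the fold change when 1 library is left out (grey bars). Slc7a11, Gclm and Chac1 lie above 2, Gpx3 lies below -1, and the error bars of Gpx4 and Gpx8 span 0.

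The 4 EPS libraries differed from one another across the transcriptome, and most tested genes, the 10 among them, divided replicates 1 and 2 from replicates 3 and 4. In CPM, EPS replicates 1 and 2 lay above EPS replicates 3 and 4 for 6 genes (Slc7a11, Gclc, Gclm, Gss, Gsr and Chac1) against 34.2% of all tested genes, and below them for 4 (Gpx1, Gpx3, Gpx4 and Gpx8), against 37.8% of all tested genes. The 4 genes below are near the share of all tested genes, so that count gives no result about them. For Gss the gap was small, with 74.3 CPM in replicate 2 and 74.0 CPM in replicate 4. Relative to the mean of control replicates 1, 3 and 4 on the log2 CPM scale, Slc7a11 was at 6.29, 7.15, 5.22 and 5.36 in EPS libraries 1 to 4, and Chac1 at 3.60, 4.31, 2.64 and 2.54. Gpx1 was at -0.91, -1.14, -0.20 and -0.13, and Gpx3 at -1.48, -1.31, -0.85 and -1.0001. Without EPS replicates 1 and 2, an alternative chosen after the data were seen, the same 5 genes rose and Gpx3 fell, with log2 fold changes of 5.33 for Slc7a11, 3.58 for Gclm and -1.03 for Gpx3.

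Transcript length and GC content moved with this division. Across 4434 genes with a mean of at least 50 CPM, the deviation of log2 CPM from the gene mean had a correlation with log2 transcript length of 0.28, 0.33, -0.45 and -0.40 in EPS replicates 1 to 4 and of 0.01, 0.11, -0.27 and -0.20 in control replicates 1 to 4, given as a description across genes that share libraries. Its correlation with GC content was 0.03, -0.21, 0.29 and 0.25 in EPS replicates 1 to 4. In control replicates 1 to 4 that correlation was 0.28, -0.49, 0.26 and 0.25. The longest transcripts of the 4 peroxidase genes have 995 to 1594 bases, and those of Slc7a11 and Gclm have 9223 and 5589, while Chac1, with 1637 bases, was higher in EPS replicates 1 and 2. With offsets for length and GC content, the 5 genes still rose and Gpx3 still fell. With those offsets and the replicate block, Gss rose and Gpx1 fell as well (0.64 and -0.40, adjusted p = 0.0194 and 0.0387 by edgeR). The part of length and GC content in the division itself was not tested.

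**Figure D4:**
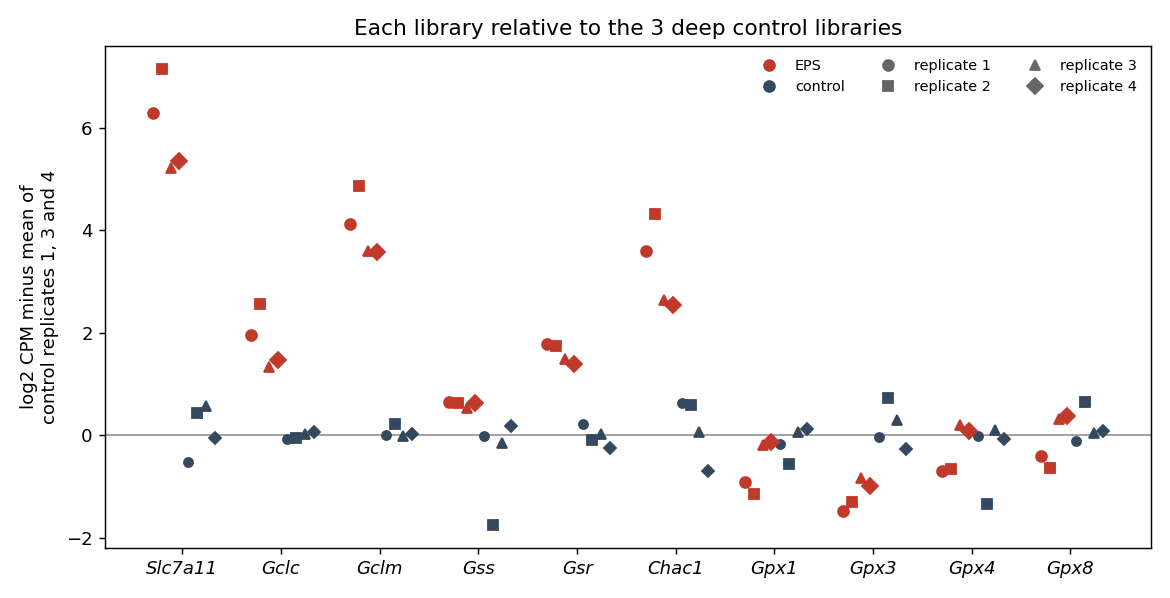
Log2 CPM of each library minus the mean of the 3 deep control libraries, by gene, for EPS libraries (left points) and control libraries (right points), with symbols for replicate numbers. EPS replicates 1 and 2 lie above replicates 3 and 4 in the first 6 genes and below them in the 4 peroxidase genes. Of all tested genes, 34.2% lay above and 37.8% below in this way in CPM.

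Levels of different genes were set side by side only per length, in FPKM as deposited. In the 3 deep control libraries the order was led by the peroxidases, with Gpx1 at 118 ± 24.7 FPKM, Gpx8 at 87.6 ± 5.12 FPKM and Gpx4 at 60.9 ± 7.84 FPKM (SD, n = 3). Gpx3, Gss, Gsr, Gclc, Chac1 and Gclm followed between 24.6 and 7.32 FPKM, and Slc7a11 was last at 0.309 ± 0.128 FPKM. Within this order, Gpx1 and Gpx8, Gpx3 and Gss, Gss and Gsr, Gclc and Chac1, and Chac1 and Gclm overlapped over libraries. In EPS libraries Gclm came first at 118 ± 56.8 FPKM and Chac1 second at 109 ± 66.7 FPKM (SD, n = 4), and Gpx3 was last at 11.5 ± 2.97 FPKM. Every pair of neighbours in the EPS order overlapped, so that order is not fixed beyond the spread of the libraries. Like the FPKM ratio of Gclm to Gclc, the orders in both groups rest on lengths that were not examined. In EPS replicates 3 and 4, Gpx1 (122 and 97.3 FPKM) and Gpx8 (107 and 103 FPKM) still led. Gclm (81.2 and 77.4 FPKM) and Chac1 (69.0 and 53.2 FPKM) were below them there.

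**Figure D5:**
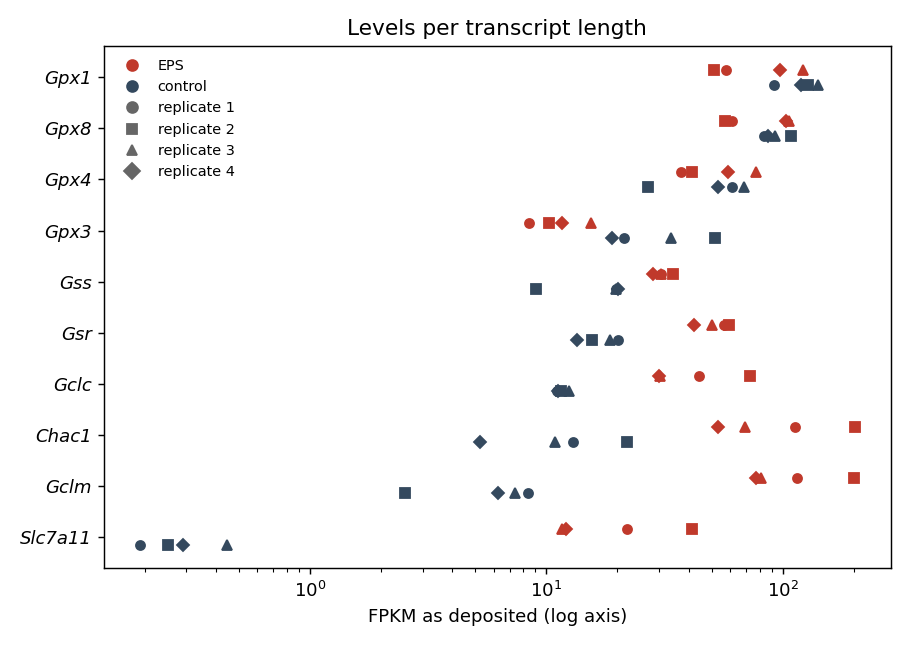
Deposited FPKM (log axis) of the 10 genes in each EPS library (upper points) and control library (lower points), ordered by the mean of control replicates 1, 3 and 4. Peroxidase genes lead in control libraries. Gclm and Chac1 have the highest FPKM values in EPS replicates 1 and 2, and Gpx1 and Gpx8 in EPS replicates 3 and 4.

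Among other genes of cystine and cysteine supply, Slc3a2 and Mat2a rose. Of 16 listed genes 12 were tested, of which 2 rose and 10 did not pass the test (5 rose with the replicate block), all 12 had a positive log2 fold change, and the median was 0.62 against 0.01 over all tested genes. The shares of all tested genes were 2.3% higher and 0.758% lower, and 7.31% and 4.78% with the block, which added Slc1a4, Slc7a5 and Cth (adjusted p = 0.0229, 0.0173 and 0.0281 by edgeR). Genes named for a call with the block alone were chosen after their values were seen. Slc3a2, the chain that carries SLC7A11 to the membrane, stood at 541, 708, 269 and 257 CPM in EPS, against 174, 117, 119 and 102 CPM in control. Its log2 fold change was 1.79 (SE 0.35, adjusted p = 0.0239 by edgeR). That call was lost without EPS replicate 1 (adjusted p = 0.0814) or any 1 control library (0.0527, 0.0575, 0.108 and 0.0977 without replicates 1 to 4), and by limma (0.0773 on log2(FPKM + 1)). Mat2a, which makes the methyl donor at the head of the path from methionine to cysteine, averaged 443 CPM ± 58.3 (SD, n = 4) in EPS and 188 CPM ± 38.1 (SD, n = 4) in control, with a log2 fold change of 1.26 (adjusted p = 0.00628 by edgeR).

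Of 7 tested transport genes, Abcc4 and Abcc1 rose and 5 did not pass the test, with a median log2 fold change of 0.03, against 2.3% higher among all tested genes. With the block 3 rose, against 7.31%, the third being Abcc5 (log2 fold change 0.67, adjusted p = 0.0331 by edgeR). Abcc4 and Abcc1, efflux pumps that carry glutathione or its conjugates, averaged 55.2 CPM ± 23.3 and 236 CPM ± 40.6 in EPS and 8.62 CPM ± 3.73 and 88.0 CPM ± 10.5 in control (SD, n = 4). The log2 fold change of Abcc4 was 2.96 and that of Abcc1 was 1.40 (adjusted p = 0.00227 and 0.00302 by edgeR). Of 11 glutathione-dependent enzymes, Esd and Prdx6 rose and 9 did not pass the test, with a median of -0.07, below that of all tested genes, against 2.3% higher among them. With the block 3 rose, against 7.31%, the third being Txnrd3 (0.58, adjusted p = 0.0285 by edgeR). Esd, which frees glutathione from S-formylglutathione, averaged 595 CPM ± 38.4 (SD, n = 4) in EPS and 122 CPM ± 13.6 (SD, n = 4) in control, a log2 fold change of 2.30 (adjusted p = 5.05e-05 by edgeR). Prdx6, a peroxiredoxin that uses glutathione as its reductant, averaged 321 CPM ± 59.1 (SD, n = 4) in EPS and 108 CPM ± 19.0 (SD, n = 4) in control, a log2 fold change of 1.55 (adjusted p = 0.00302 by edgeR).

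At the shares of all tested genes (2.3% higher and 0.758% lower, or 7.31% and 4.78% with the block), the counts in the next 3 lists give no result about the lists. Of 8 tested breakdown and salvage genes, 0 passed by edgeR's test and 0 by that of DESeq2, 1 had an unadjusted p under 0.05, and Anpep was higher with the replicate block (0.50, adjusted p = 0.0403 by edgeR). The gene highest in CPM among them, the peptidase gene Lap3, averaged 63.8 CPM ± 8.26 (SD, n = 4) in EPS and 71.7 CPM ± 7.60 (SD, n = 4) in control (adjusted p = 0.667 by edgeR). Of 10 genes for selenocysteine insertion and selenium supply, 1 rose and 9 did not pass the test, and with the block Selenop, the gene of selenoprotein P, was lower as well (-0.59, adjusted p = 0.0343 by edgeR). The gene that rose was Lrp8, which encodes a receptor for selenoprotein P, with 33.2 CPM ± 15.01 (SD, n = 4) in EPS and 4.45 CPM ± 3.08 (SD, n = 4) in control, a log2 fold change of 2.54 (adjusted p = 0.00778 by edgeR, 0.0515 without control replicate 3, and 0.131 by limma on log2(FPKM + 0.1)). Of 15 genes of lipid peroxidation and ferroptosis, 1 fell and 14 did not pass the test (with the block, Lpcat3, Acsl3 and Alox5 were lower and Gch1 higher), and the median was -0.22. Lpcat3, which places polyunsaturated chains in phospholipids, averaged 59.3 CPM ± 3.05 (SD, n = 4) in EPS and 91.1 CPM ± 12.5 (SD, n = 4) in control, with a log2 fold change of -0.64 (adjusted p = 0.0414 by edgeR). Its call was lost in 11 of 19 alternatives, with a highest adjusted p of 0.178 over all the edgeR, DESeq2 and limma fits. The 11 included both limma fits, the fit without a filter and each fit without 1 library other than control replicate 2.

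Genes of nearest pattern were found by the root mean square difference of centred log2 CPM over the 7 libraries other than control replicate 2, among 10823 genes with a mean of at least 5 CPM. For Gclm the nearest was Srxn1, which encodes sulfiredoxin, with a difference of 0.068 log2 units, and Gdf15 came next at 0.33. For Gclc it was Cebpb at 0.12, for Chac1 it was Aox1 at 0.25 and for Slc7a11 it was Hmox1 at 0.51. Hspa1b and Atf3 (0.62 and 0.65) followed for Slc7a11, Slc22a4 and Gdf15 (0.34 each) for Chac1, Cachd1 and Ankrd33b (0.15 and 0.16) for Gclc, and Osgin1 (0.40) for Gclm. Of the genes found in these 4 searches, Srxn1 had the smallest difference.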

How the data were processed

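Per the labels' protocols, column-purified RNA from cell pellets was prepared with a strand-marking total RNA kit. STAR 2.5.1, Cufflinks, Cuffdiff 2.2.1 and build mm10 are named in the submitters' processing notes. The deposited table, per the file headers, holds estimated counts of fragments (not scaled) and FPKM per gene and library, with both lanes of a library (16 GEO samples) in 1 value. The sources used here do not give annotation release or strand setting. Symbols and positions came from GENCODE M21 (mm10) by identifier without version (48051 of 48432 matched).

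Estimated counts (93.3% of those above 0 exactly whole) were rounded. The table marks 46 genes as skipped for excess fragments, none of them among the 10, and they were left out. Genes passed filterByExpr by group (minimum count 10, minimum total 15), were scaled by TMM and tested with edgeR 4.0.16 (R 4.3.3) on 8 libraries without covariate, with Benjamini-Hochberg adjustment over 13987 genes. The precision of each library's values follows its depth, and control replicate 2 is the least precise. CPM uses TMM-scaled sizes, and log2 CPM has a prior count of 2. Standard errors were derived from each F statistic. The test was run on simulated counts first. It recovered 39 of 100 genes with a 2-fold change and 92 of 100 with a 4-fold change, and 16 unchanged genes were called. Changes near 2-fold were thus often missed in the simulation. Beside the 39 and 92 true calls, the 16 false ones were a larger share than the adjusted p threshold is meant to allow. The adjusted p-values of this test may thus understate the share of false calls.

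Replicate numbers 1 to 4 come from the sample titles, which do not say what a number marks. Deviations from the group mean correlated between same-numbered libraries at 0.30, 0.21, 0.29 and 0.30 over 13987 genes, the highest value for each EPS library. EPS replicate 3 with control replicate 4 (0.25) and EPS replicate 4 with control replicate 3 (0.23) came close. Replicates 3 and 4 are thus hardly told apart by number. The numbers were taken to pair the libraries, which is an assumption, and the block is given where it changes a call.

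The 10 genes and the gene lists were chosen with earlier results of these data known. Named genes are the 10, up to 4 called genes with the smallest adjusted p per list or its most abundant gene, the 3 nearest patterns of 4 genes, and genes overlapping the 10. Alternatives were RLE scaling, no filter on low counts, DESeq2 1.42.0, limma 3.58.1 on log2(FPKM + 1) and log2(FPKM + 0.1), the replicate block, length and GC offsets (mean of at least 50 CPM), and each library left out.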

Additional observations from a re-analysis of the deposited data

Results flagged for a closer look

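Gclm in control replicate 2 was at 17.0 CPM, apart from the other 3 control libraries at 14.5 to 14.8 CPM, and its gap to the nearest of them was large for a group of 4 (ratio of gap to range 0.870, above the 95% limit of Dixon's test). The value rests on 6 fragments in the shallow library. In deposited FPKM the same library was the lowest control for Gclm, at 2.51 against 8.39, 7.34 and 6.25 in the others. The CPM and FPKM scales thus differ in direction there. Of 22 groups examined this was the only 1 to stand out, and chance alone gives about 1 in 20.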

How the results depend on the processing

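Slc7a11, Gclc, Gclm, Gsr and Chac1 rose in all 19 alternatives, the highest adjusted p being 0.0329 (Gclc without control replicate 1), and the members called higher were 5 to 6 with 1 library left out. The count of all genes called (428) was 947 by DESeq2, 178 and 123 by limma on log2(FPKM + 1) and log2(FPKM + 0.1), 793 with length and GC offsets, 119 to 537 with 1 library left out (139, 120, 119 and 130 without EPS replicate 1 or control replicate 1, 3 or 4), and 3139 without EPS replicates 3 and 4. With the replicate block it was 1691, with block and offsets 2276, and with the block without pair 2 it was 2457. The block changed no call among the 10 genes other than that of Gss. Members called lower (1) were 0 in both limma fits, 2 with block and offsets, with the block without pair 2 and without EPS replicates 3 and 4, and 0 to 1 with 1 library left out. Gss passed in 5 alternatives, and Gpx1 in 3. The uncalled Gpx4 and Gpx8 changed sign in 6 and 3 alternatives. Gpx4 was at 0.052 and 0.053 in the limma fits, 0.20 without EPS replicates 1 and 2, and -0.27 to 0.054 with 1 library left out. Gpx8 was at 0.089 with the block without pair 2, 0.24 without EPS replicates 1 and 2, and -0.34 to 0.0031 with 1 library left out. The causes were not tested. Leaving out EPS replicates 3 and 4, or 1 and 2, was chosen after the data were seen. In control replicate 2, 3 fragments correspond to 8.52 CPM, above the level of Slc7a11 in every control library, so its value there says little.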

Other observations

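Gm37498, a gene model on the same strand as Slc7a11 that overlaps it without sharing exon bases, held 24, 30, 3 and 5 fragments in EPS libraries 1 to 4 and 0 in each of the 4 control libraries. Gssos1, on the strand opposite to Gss, held 24, 8, 3 and 2 fragments in EPS libraries 1 to 4 and 0 in each control library, and Gssos2 on the same strand held 25, 17, 10 and 8 in EPS and 3, 0, 2 and 1 in control. All were under the filter on low counts and were not tested, and they were chosen after their values were seen.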
